A study of Homo sapiens with 24 samples.

Results

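The 10 genes described here act in the G1 phase of the cell cycle and were followed across 8 media: the D cyclins CCND1, CCND2 and CCND3, the E cyclins CCNE1 and CCNE2, the CIP/KIP inhibitors CDKN1A, CDKN1B and CDKN1C, and the INK4 inhibitors CDKN2B and CDKN2C. They were taken by gene symbol from a table of 58735 genes, in which all 10 symbols were found. That rule uses no measured value, but the members were chosen with earlier results of these data known. The cells were OVCAR8, an established line of high grade serous ovarian cancer, and polyadenylated RNA was sequenced from 24 libraries, 3 for each medium. The study asked how secretions of senescent cells alter these cells when they grow without attachment, and whether heat or size separation of the medium alters that response.

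All 24 libraries came from cells kept in ultra-low attachment plates, and the labels give 1 protocol for every group, in which the medium under test was mixed with RPMI 1640, 1 part to 1 part. The line itself was maintained in RPMI 1640 with 5% fetal bovine serum. Fresh medium was not conditioned. Proliferative medium had been conditioned by vehicle-treated dividing cells, and senescent medium by cells made senescent with cisplatin, a platinum drug that crosslinks DNA. The labels do not name the cells that conditioned the media. Senescent medium was also used in 3 further preparations: boiled, the fraction of less than 3 kDa (small fraction) and the fraction of greater than 3 kDa (large fraction). Cells of the 2 remaining groups had received proliferative or senescent medium as a pre-treatment. What came between pre-treatment and harvest, and how long any exposure lasted, is not stated in the labels. Nor do they say whether libraries of a group came from separate cultures, so the p-values below rest on variation that could be purely technical.

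D cyclins bind CDK4 and CDK6 and E cyclins bind CDK2, and these kinases phosphorylate the retinoblastoma protein so that E2F factors can switch on the genes of DNA replication. CIP/KIP inhibitors bind both kinds of kinase complex, and INK4 inhibitors bind CDK4 and CDK6 alone. High grade serous ovarian cancers often carry extra copies of CCNE1 and usually carry mutations of the gene for p53, the factor that activates CDKN1A after DNA damage.

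Total counts ran from 14718120 to 21956598 per library, and mitochondrial transcripts took 4.09% to 6.85% of them. That share differed with the medium: 5.93% to 6.12% in fresh, 4.55% to 4.58% in proliferative and 4.09% to 4.79% in senescent medium, 5.84% to 5.95% in boiled medium, 6.06% to 6.85% in the small fraction, 5.02% to 5.40% in the large fraction, and 5.01% to 5.48% in both pre-treated groups. Its part in the differences between media below was not tested. PAX8, a marker of the tubal and ovarian lineage, lay between 19.7 and 40.6 FPKM (fragments scaled to gene length and to a library constant near the total, a level per length). KRT7, KRT8 and KRT18 were at or above 53.6 FPKM in every library. WT1, MUC16, KRT19 and CDH1, also used as markers of this tumour or of epithelium, did not exceed 0.606 FPKM. The summed fibroblast markers were lowest in the 3 senescent libraries, at 125 to 132 FPKM against 213 to 227 FPKM in fresh medium. Most of that sum was COL1A1, a collagen chain, at 115 to 218 FPKM, and PDGFRB, a growth factor receptor, was present at 5.62 to 13.1 FPKM in every library. LUM lay between 0.313 and 1.80 FPKM, and COL1A2, DCN and PDGFRA stayed at or under 0.0231, 0.00476 and 0.0470 FPKM. Senescent libraries also stood apart in how counts followed gene length, with a correlation of library deviation and log2 length over 13240 genes between -0.271 and -0.179, against 0.034 to 0.073 in fresh medium. This correlation was -0.115 to -0.077 in proliferative medium, and lay the other way in the pre-treated groups (0.075 to 0.206 with proliferative and 0.077 to 0.216 with senescent medium).

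Cyclin E transcripts were lower and CDKN1C transcripts were higher than in fresh medium in nearly every other medium, while CCND1 moved in opposite directions in different media. CDKN1C was called higher in 7 of 7 media, CCNE1 and CCNE2 were each called lower in 6 of 7, and CCND1 was called higher in 2 and lower in 3. A gene was called where edgeR's quasi-likelihood test gave an adjusted p under 0.05 over 19210 genes tested. Of the 10 members, 9 passed the filter on low counts, and each of those 9 differed somewhere among the 8 media, as did 70.9% of all genes tested. In bulk RNA a change in every cell and a change in the share of cells that express a gene cannot be told apart.

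Against fresh medium, 2 of the 9 tested members rose in proliferative medium and 5 fell, where 20.6% of all genes tested rose and 21.5% fell (42.2% called). In senescent medium 2 rose and 4 fell (18.2% and 15.5% of all genes, 33.6% called). In boiled medium 2 rose and 4 fell (14% and 13.9% of all genes, 27.9% called). All 9 were called in the small fraction, 4 higher and 5 lower (22.1% and 22.5% of all genes, 44.6% called). The large fraction had 2 higher and 2 lower (13.9% and 13% of all genes, 26.9% called). Pre-treatment with proliferative medium gave 1 higher and 4 lower (15.1% and 16.7% of all genes, 31.8% called). With pre-treatment by senescent medium the 3 members called, 2 higher and 1 lower, were near the share of all genes (14.6% and 15.6%, 30.2% called). The members' median log2 fold change was -0.166 in proliferative medium and -0.244 in the small fraction, against 0.005 and 0.007 over all genes. All 7 comparisons share the same 3 fresh libraries, so they are not independent of each other.

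**Figure D1:**
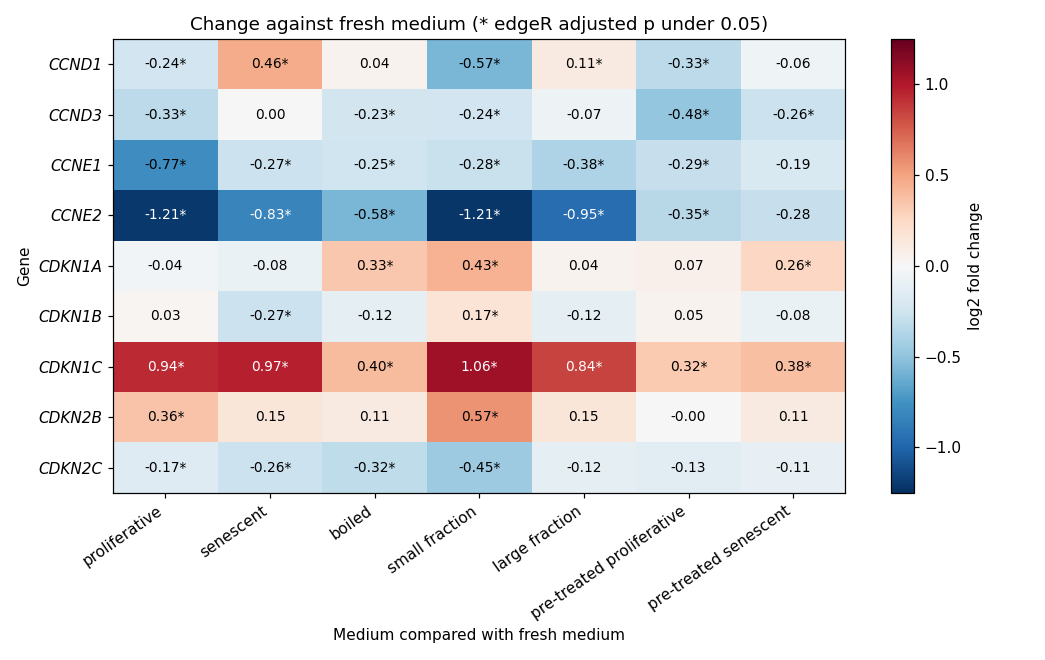
Colour and printed value give the edgeR log2 fold change of each member (rows) against fresh medium in 7 media (columns), and an asterisk marks an adjusted p under 0.05. CDKN1C is called higher in all 7 columns and CCNE2 is lowest in proliferative medium and the small fraction, at -1.21 in both.

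CCND1 (ENSG00000110092, GRCh38 chr11:69641087-69654474, plus strand), the D cyclin that growth factor signalling induces, had the highest median FPKM of the 10 over the 24 libraries. LTO1 on the opposite strand shares 497 of its 4830 exon bases. It measured 43.4, 41.2 and 41.2 FPKM in fresh medium and 58.1, 56.9 and 58.5 FPKM in senescent medium. Proliferative medium gave 34.6, 35.2 and 37.1 FPKM. Thus all senescent libraries lay above, and all proliferative libraries below, every fresh library. Against fresh medium CCND1 rose by a log2 fold change of 0.46 ± 0.04 (SE) in senescent medium (adjusted p = 1.85e-12). It fell by 0.24 ± 0.04 on the log2 scale in proliferative medium (adjusted p = 6.33e-06).

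The small fraction held the lowest CCND1 levels, at 28.9, 27.4 and 28.3 FPKM. The large fraction held 44.2, 45.7 and 46.4 FPKM, and boiled medium 42.0, 43.9 and 44.2 FPKM. So the small fraction stood below every other group without overlap, while boiled medium overlapped fresh medium. Against fresh medium the small fraction changed CCND1 by -0.57 ± 0.04 (log2, adjusted p = 1.7e-15) and the boiled medium by 0.04 ± 0.04 (adjusted p = 0.468). The rise of 0.11 ± 0.04 in the large fraction (adjusted p = 0.0328) lost its call when fresh library 2 or 3, or large-fraction library 2 or 3, was left out (adjusted p 0.0849 to 0.13), and with scaling to library totals (0.07, adjusted p = 0.198).

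In pre-treated cells CCND1 was again higher with senescent than with proliferative medium. Pre-treatment with proliferative medium gave 33.6, 33.7 and 33.7 FPKM of CCND1, and pre-treatment with senescent medium 41.8, 39.2 and 40.5 FPKM. From highest to lowest, the group means ran from senescent medium (57.9 ± 0.815 FPKM, SD, n = 3) through the large fraction, boiled, fresh, pre-treated senescent, proliferative and pre-treated proliferative media to the small fraction (28.2 ± 0.752). Of the 7 neighbouring pairs in that order, 5 did not overlap. The overlapping pairs were boiled with fresh and fresh with pre-treated senescent.

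**Figure D2:**
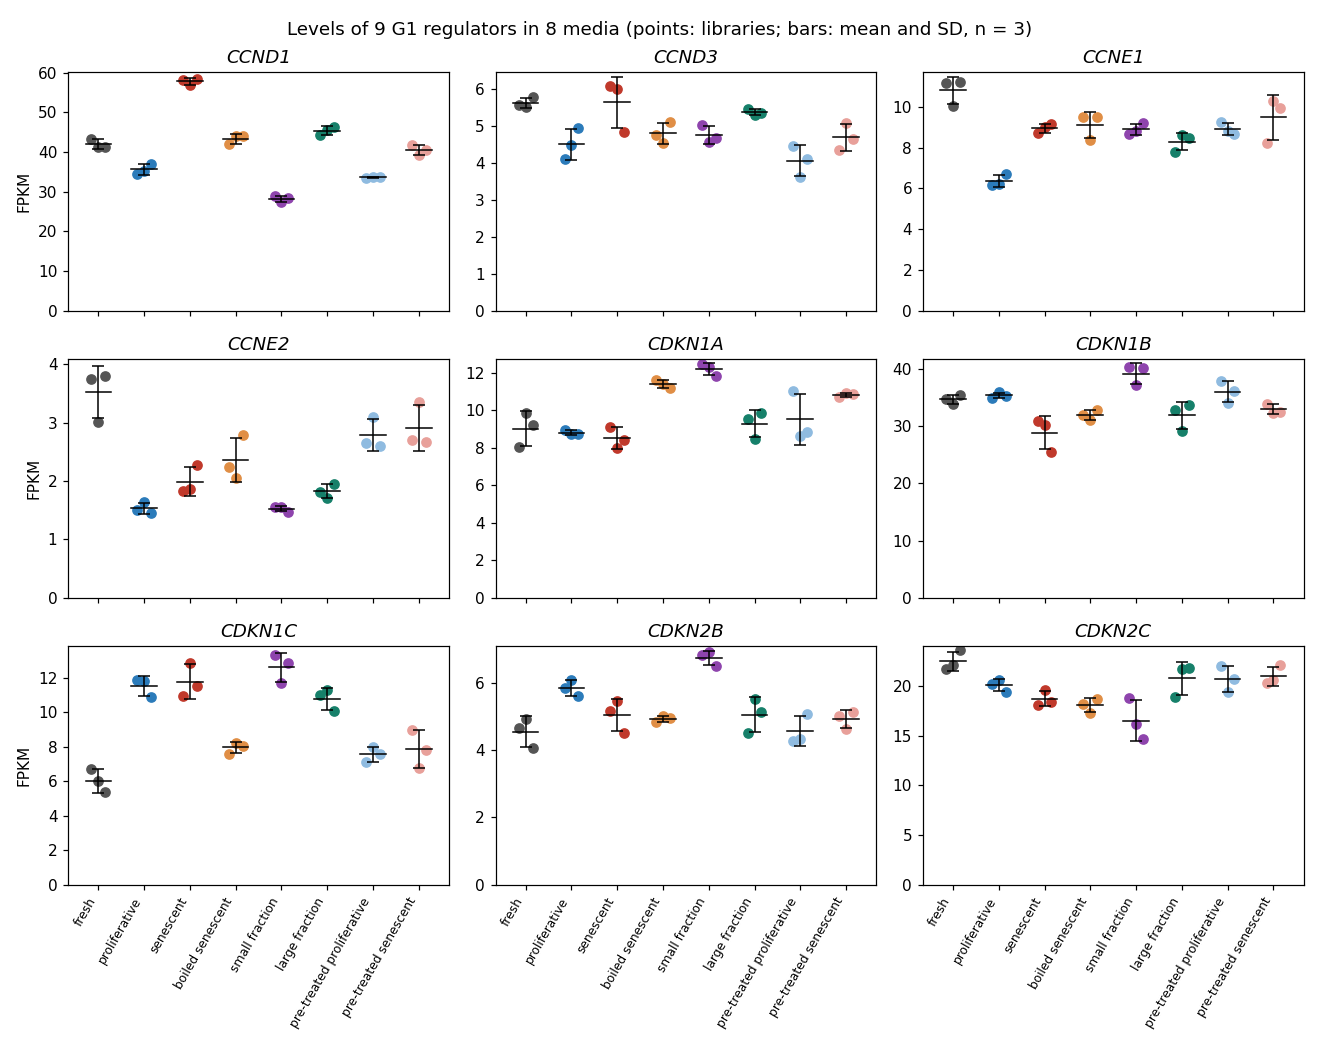
Each panel plots the level of 1 member in FPKM on a vertical axis from 0, with a point for each library and a line and bar for the mean and SD of the 3 libraries of each of the 8 media. CCND1 is highest in senescent medium (57.9) and lowest in the small fraction (28.2), and CDKN1C is lowest in fresh medium (6.02).

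CCND3 (ENSG00000112576, chr6:41934933-42050357, minus strand), a D cyclin best known from lymphoid cells, lay far below CCND1. Fresh medium gave 5.55, 5.52 and 5.77 FPKM, and pre-treatment with proliferative medium, the lowest group, gave 4.45, 3.61 and 4.11 FPKM. These groups did not overlap, and the edgeR log2 fold change between them was -0.48 ± 0.09 (adjusted p = 3.03e-05). CCND3 fell against fresh medium in 5 of 7 media, and the 2 exceptions were senescent medium (0.00 ± 0.09, adjusted p = 0.981) and the large fraction (-0.07 ± 0.09, adjusted p = 0.619). Its falls in boiled medium (-0.23), the small fraction (-0.24) and pre-treated senescent medium (-0.26) each lost the call when single libraries were left out (adjusted p 0.0505 to 0.16). The fall in boiled medium also lost it with no filter on low counts and under both limma fits. A replicate block with the length trend removed did the same (adjusted p 0.0572 to 0.0726 in these fits).

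CCND2 (ENSG00000118971, chr12:4273772-4305350, plus strand), the remaining D cyclin, was close to absent from the count table. It had 1 count in a senescent library and 1 in a pre-treated senescent library, 2 in all 24, and was not tested. A count of 0 in a library allows up to 3 counts by the usual limit, which covers counting error only. CCND1 therefore supplied most of the summed D cyclin FPKM, from 85.6 ± 0.338% (SD, n = 3) in the small fraction to 91.1 ± 1.07% in senescent medium. That sum itself ranged from 33.0 ± 0.980 FPKM in the small fraction to 63.5 ± 0.655 FPKM in senescent medium.

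CCNE1 (ENSG00000105173, chr19:29811898-29824308, plus strand) encodes the cyclin that pairs with CDK2 at the start of S phase. Its upstream bases are shown, with those of CDKN1A, because both genes are textbook targets of promoter control in G1, and the members' promoters were searched for short words. The stretches come from RefSeq (GRCh38.p14), run 5′ to 3′ on the gene's strand and hold no exon bases of the gene in GENCODE 29. Capitals mark each GC box (GGGCGG on either strand), the word that Sp1-type factors bind. The CCNE1 stretch is chr19:29811741-29811897, bases 250 to 94 before the RefSeq start, and holds 5 GC boxes. The CDKN1A stretch is chr6:36678464-36678657, bases 250 to 57 before the RefSeq start, and holds 2. It lies inside the span of the GENCODE gene, which begins further upstream, and the CCNE1 stretch ends just before that gene's first base.
CCNE1: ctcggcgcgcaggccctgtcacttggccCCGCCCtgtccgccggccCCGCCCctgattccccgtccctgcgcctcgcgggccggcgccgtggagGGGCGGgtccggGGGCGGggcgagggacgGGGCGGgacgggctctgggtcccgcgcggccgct
CDKN1A: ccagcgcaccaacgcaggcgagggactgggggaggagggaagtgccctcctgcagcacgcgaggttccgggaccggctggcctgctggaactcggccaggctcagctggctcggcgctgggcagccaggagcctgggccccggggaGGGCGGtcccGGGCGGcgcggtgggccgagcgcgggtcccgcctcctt

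The promoter table held 10 windows of 300 bases for 6 members: CCND3, CCNE1, CDKN1A, CDKN1B, CDKN2B and CDKN2C. Both strands were searched for E2F words (TTTGGCGC, TTTCGCGC, TTTCCCGC or TTTGGCGG), the hypoxia response core (ACGTG), the GC box, the cyclic AMP response element (TGACGTCA) and a forkhead word (TGTTTAC), none of which contains another. A GC box was in 8 of the 10 windows, against 45% of 35116 promoters of the same length. The hypoxia core was in 2 windows (21.4% of promoters), the forkhead word in 1 (3.42%), and the E2F words (3.35%) and the cyclic AMP element (1.85%) in 0. These matches describe the letters of the windows.

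CCNE1 was highest in fresh medium, at 11.1, 10.1 and 11.2 FPKM. Proliferative medium, the lowest group, gave 6.16, 6.20 and 6.69 FPKM, and senescent medium gave 8.71, 9.02 and 9.14 FPKM. No proliferative library reached any senescent library, and no senescent library reached any fresh one. Relative to fresh medium CCNE1 fell by 0.77 ± 0.09 on the log2 scale in proliferative medium (adjusted p = 1.3e-09) and changed by -0.27 ± 0.09 in senescent medium (adjusted p = 0.0126). The second call was lost without fresh library 1, fresh library 3 or senescent library 1 (adjusted p 0.0501 to 0.0557).

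Other media gave CCNE1 levels near those of senescent medium. The small fraction gave 8.68, 8.83 and 9.19 FPKM, the large fraction 7.80, 8.61 and 8.49 FPKM, and boiled medium 9.497, 8.40 and 9.48 FPKM. Pre-treatment gave 9.25, 8.84 and 8.66 FPKM with proliferative medium and 8.21, 10.3 and 9.96 FPKM with senescent medium. Only the last of these 5 groups overlapped fresh medium. Its difference from fresh, -0.19 ± 0.09, missed the threshold (adjusted p = 0.0829), and pre-treated senescent library 1 was the lowest of its group. The call in boiled medium (-0.25 ± 0.08, adjusted p = 0.0247) was lost without fresh library 1 or 3 or boiled library 2 (adjusted p 0.0879 to 0.143).

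CCNE2 (ENSG00000175305, chr8:94879770-94896678, minus strand), the second E cyclin, showed the widest range of group means, 2.31-fold between fresh medium and the small fraction. Fresh medium gave 3.75, 3.01 and 3.80 FPKM, proliferative medium 1.498, 1.64 and 1.45 FPKM, and the small fraction 1.56, 1.55 and 1.47 FPKM. Neither of the 2 low groups overlapped fresh medium, and they overlapped each other. The fall against fresh was 1.21 ± 0.13 on the log2 scale in proliferative medium (adjusted p = 5.92e-10) and the same in the small fraction (adjusted p = 3.21e-10).

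Intermediate levels of CCNE2 were measured in the remaining media. Senescent medium gave 1.83, 1.86 and 2.28 FPKM (log2 fold change against fresh -0.83 ± 0.13, adjusted p = 2.79e-06), the large fraction 1.81, 1.71 and 1.95 FPKM (-0.95 ± 0.13, adjusted p = 1.45e-07) and boiled medium 2.23, 2.06 and 2.79 FPKM (-0.58 ± 0.13, adjusted p = 0.000421). All of these lay below fresh medium. Pre-treated cells held 2.65, 3.10 and 2.61 FPKM after proliferative medium and 2.70, 3.36 and 2.67 FPKM after senescent medium, both overlapping fresh medium. The call for the first (-0.35 ± 0.13, adjusted p = 0.0288) was lost when any 1 of 4 libraries was left out (adjusted p 0.0884 to 0.128), and the second was not called (-0.28 ± 0.13, adjusted p = 0.083).

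Exons of CCNE2 share 1629 of their 4397 bases with INTS8 on the opposite strand, and the strand setting of the counting is not given in the sources used here, so the CCNE2 values are uncertain. INTS8, an Integrator subunit, was not called in proliferative medium (-0.14 ± 0.07, adjusted p = 0.112) or in the small fraction (0.07 ± 0.07, adjusted p = 0.435) against fresh. In the large fraction it was called lower than in fresh medium (-0.24 ± 0.07, adjusted p = 0.00894) and in intact senescent medium (-0.20 ± 0.07, adjusted p = 0.0452). The small fraction held more INTS8 than the large (0.31 ± 0.07, adjusted p = 0.000458). CCNE1 made up 75.5 ± 1.29% of the summed E cyclin FPKM in fresh medium and 85.4 ± 0.730% in the small fraction, and the library ranges of these 2 groups were apart. The E cyclin sum was highest in fresh medium (14.3 ± 1.09 FPKM) and lowest in proliferative medium (7.88 ± 0.244 FPKM).

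CDKN1C (ENSG00000129757, chr11:2883213-2885773, minus strand) encodes p57, an imprinted inhibitor of G1 kinases. Fresh medium gave 6.71, 5.99 and 5.36 FPKM. In proliferative medium the levels were 11.9, 11.8 and 10.9 FPKM, and in senescent medium 10.9, 12.9 and 11.5 FPKM. Both conditioned media lay well above fresh medium and overlapped each other. The log2 fold change against fresh was 0.94 ± 0.10 in proliferative medium (adjusted p = 1.04e-10) and 0.97 ± 0.10 in senescent medium (adjusted p = 8.63e-11).

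Among the preparations of senescent medium, boiled medium held the least CDKN1C. CDKN1C measured 13.3, 11.7 and 12.9 FPKM in the small fraction, 10.99, 11.3 and 10.1 FPKM in the large fraction and 7.61, 8.25 and 8.05 FPKM in boiled medium. Boiled medium lay below all libraries of both fractions and above all fresh libraries. Against fresh medium the log2 fold change was 1.06 ± 0.10 in the small fraction (adjusted p = 1.56e-12), 0.84 ± 0.10 in the large fraction (adjusted p = 2.94e-09) and 0.40 ± 0.10 in boiled medium (adjusted p = 0.0017). Pre-treatment gave 7.15, 8.01 and 7.57 FPKM with proliferative medium and 8.99, 6.78 and 7.83 FPKM with senescent medium, all above fresh medium. Those rises of 0.32 ± 0.10 (adjusted p = 0.0108) and 0.38 ± 0.10 (adjusted p = 0.00307) each depended on single libraries: without fresh library 3 or pre-treated proliferative library 2 the first had an adjusted p of 0.104 or 0.056, and without pre-treated senescent library 1 the second had 0.0554.

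CDKN1A (ENSG00000124762, chr6:36676460-36687339, plus strand), whose p21 protein is the inhibitor best known as a p53 target, was called in 3 media only: the small fraction, boiled medium and pre-treatment with senescent medium. It measured 8.02, 9.82 and 9.20 FPKM in fresh medium, 12.4, 12.3 and 11.8 FPKM in the small fraction and 11.6, 11.4 and 11.2 FPKM in boiled medium. Both treated groups lay above every fresh library. The rise was 0.43 ± 0.08 (log2, adjusted p = 3.57e-05) in the small fraction and 0.33 ± 0.08 in boiled medium (adjusted p = 0.00194).

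CDKN1A overlapped the fresh range in both intact conditioned media and in the large fraction. Its levels were 8.94, 8.71 and 8.74 FPKM in proliferative medium, 9.11, 7.97 and 8.41 FPKM in senescent medium and 9.52, 8.48 and 9.83 FPKM in the large fraction, with log2 differences from fresh of -0.04 ± 0.09, -0.08 ± 0.09 and 0.04 ± 0.08 (adjusted p 0.495 to 0.769). Pre-treatment with senescent medium gave 10.7, 10.9 and 10.8 FPKM, above fresh by 0.26 ± 0.08 (adjusted p = 0.0165), a call lost without fresh library 1 (adjusted p = 0.158). Pre-treatment with proliferative medium gave 11.04, 8.61 and 8.85 FPKM, of which the last 2 lay within the fresh range.

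CDKN1B (ENSG00000111276, chr12:12715058-12722371, plus strand), which encodes p27, was the most abundant inhibitor. Fresh medium gave 34.8, 33.9 and 35.5 FPKM, the small fraction 40.4, 37.2 and 40.2 FPKM and senescent medium 30.9, 30.2 and 25.5 FPKM. The small fraction lay above fresh medium and senescent medium below it, with no overlap. CDKN1B rose by 0.17 ± 0.06 (log2, adjusted p = 0.0126) in the small fraction and changed by -0.27 ± 0.06 in senescent medium (adjusted p = 0.000397). Without fresh library 2 or small-fraction library 1 the first call was lost (adjusted p 0.052 and 0.0527).

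The group means of CDKN1B followed nearly the reverse order of CCND1. Senescent medium, highest for CCND1, was lowest for CDKN1B (28.9 ± 2.91 FPKM), and the small fraction, lowest for CCND1, was highest for CDKN1B (39.3 ± 1.80 FPKM). Over the 8 group means of log2 CPM (counts scaled to library size), the Pearson correlation of both genes was -0.970, a description of 8 points that share library scaling. For CCNE2 and CDKN1C the same measure was -0.953. These were the strongest correlations among all pairs of tested members. Other pairs of a cyclin and an inhibitor ran from -0.838 (CCNE2 with CDKN2B) to 0.646 (CCNE2 with CDKN2C), with CCND1 and CDKN1C at -0.055. CDKN1B levels in neighbouring groups of their order always overlapped.

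**Figure D3:**
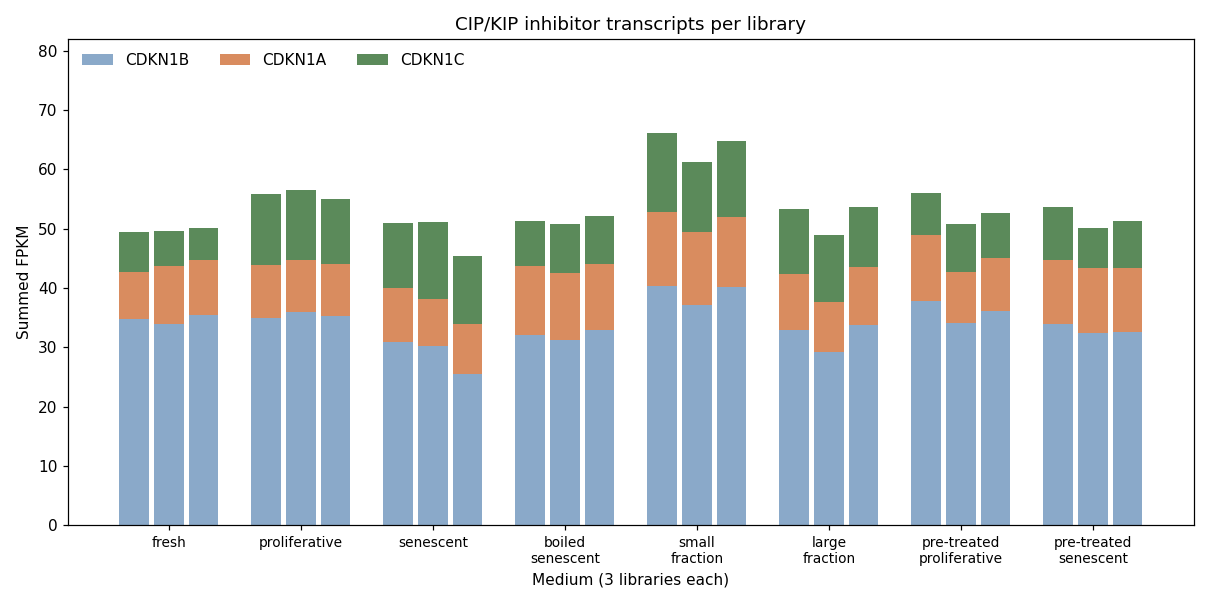
Stacked bars give the FPKM of CDKN1B, CDKN1A and CDKN1C in each of the 24 libraries, grouped by medium, on an axis from 0. The mean sum is highest in the small fraction (64.1 FPKM) and the CDKN1C part is smallest in fresh medium (12.1% of the sum).

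Together the CIP/KIP transcripts summed to 49.8 ± 0.299 FPKM in fresh medium, 49.2 ± 3.19 in senescent medium and 64.1 ± 2.6 in the small fraction (SD, n = 3). In senescent medium the sum of deposited FPKM overlapped fresh medium while its makeup differed. Scaled to library totals without division by length, the sums were 142.3 ± 1.53 CPM in fresh and 131.8 ± 8.34 CPM in senescent medium. CDKN1B made up 69.8 ± 1.43% of the FPKM sum in fresh medium and 58.6 ± 2.28% in senescent medium, and CDKN1C stood at 12.1 ± 1.42% and 24.04 ± 2.20%. These shares are given as values, without a test.

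CDKN2B (ENSG00000147883, chr9:22002903-22009363, minus strand) encodes p15, the INK4 inhibitor known as a target of TGF-beta. Fresh medium gave 4.66, 4.93 and 4.05 FPKM, the small fraction 6.81, 6.90 and 6.49 FPKM and proliferative medium 5.85, 6.08 and 5.60 FPKM. The 3 groups did not overlap. CDKN2B rose by 0.57 ± 0.09 (log2, adjusted p = 2.42e-06) in the small fraction and by 0.36 ± 0.09 in proliferative medium (adjusted p = 0.00179). In the other 5 media its mean lay between 4.56 and 5.05 FPKM and no call was made (adjusted p 0.247 to 0.991). The antisense gene CDKN2B-AS1 lies across the locus but shares 0 exon bases with CDKN2B, and fell by 0.85 ± 0.19 (adjusted p = 0.00044) in senescent against fresh medium.

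CDKN2C (ENSG00000123080, chr1:50960745-50974633, plus strand), which encodes p18, was the more abundant INK4 gene. It measured 21.8, 22.2 and 23.6 FPKM in fresh medium and 18.8, 16.1 and 14.6 FPKM in the small fraction, where it fell by 0.45 ± 0.07 on the log2 scale (adjusted p = 5.43e-07). These groups did not overlap. It also fell in boiled medium (-0.32 ± 0.07, adjusted p = 0.000299) and in senescent medium (-0.26 ± 0.07, adjusted p = 0.00238). The smaller change in proliferative medium (-0.17 ± 0.07, adjusted p = 0.0466) lost its call without any 1 of 5 libraries and under the DESeq2 and limma fits (adjusted p 0.0606 to 0.184). CDKN2B made up 16.8 ± 1.90% of the summed INK4 FPKM in fresh medium and 29.1 ± 2.18% in the small fraction, without overlap.

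Senescent and proliferative media were then compared directly, which sets whole medium from cisplatin-treated cells against whole medium from dividing cells. All 4 measured cyclins were higher in senescent medium and CDKN1B was lower, 4 and 1 of 9 members, where 16.6% of all genes were higher and 12.4% lower (29% called). CCND1 showed the largest of these differences (0.70 ± 0.04, log2, adjusted p = 2.01e-17), a 1.63-fold difference. CCNE1 was higher by 0.50 ± 0.09 (adjusted p = 2.73e-05), CCND3 by 0.33 ± 0.09 (adjusted p = 0.00356) and CCNE2 by 0.38 ± 0.14 (adjusted p = 0.039). CDKN1B was lower by a log2 fold change of -0.29 ± 0.06 (adjusted p = 0.000138).

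CDKN1A, CDKN1C, CDKN2B and CDKN2C were not called between the 2 conditioned media, with log2 differences from -0.21 to 0.03. The CCNE2 call was lost without proliferative library 1 or 3 or senescent library 3 (adjusted p 0.104 to 0.23) and with the length trend removed (0.36, adjusted p = 0.0539). With scaling to library totals 3 members were higher and 3 lower in place of 4 and 1, since CDKN2B and CDKN2C passed the threshold there (adjusted p = 0.0175 and 0.0474) and CCNE2 did not. CCND1 kept a log2 difference of 0.69 (adjusted p = 1.32e-17) with the length trend removed.

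**Figure D4:**
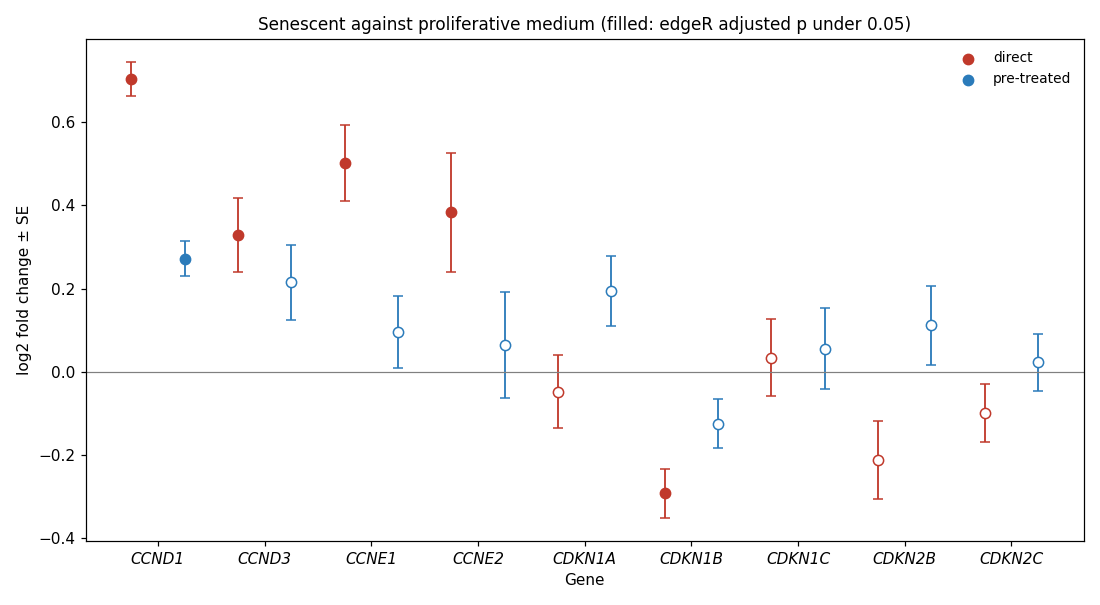
Points give the edgeR log2 fold change of senescent over proliferative medium for 9 members, in red for direct exposure and in blue for pre-treatment, with bars of 1 SE and filled points where the adjusted p is under 0.05. CCND1 is filled in both (0.70 and 0.27), and the 3 other cyclins are filled only for direct exposure.

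After pre-treatment, CCND1 alone was called between the same 2 media, higher by 0.27 ± 0.04 after senescent medium (adjusted p = 5.99e-05). That is 1 of 9 members, where 0.625% of all genes were higher and 0.265% lower (0.89% called). The other 8 had log2 differences from -0.12 to 0.21 (adjusted p 0.414 to 0.958). The difference between the direct and the pre-treated effect was itself tested, and 0 of 9 members were called positive and 2 negative, where 5.58% and 8.19% of all genes were (13.8% called). It was -0.43 ± 0.06 for CCND1 (adjusted p = 5.64e-07) and -0.41 ± 0.13 for CCNE1 (adjusted p = 0.0234), and in both the direct difference was the greater. The CCNE1 call was lost without proliferative library 1 or 2 or pre-treated senescent library 1 (adjusted p 0.0586 to 0.0927) and with library totals (-0.34, adjusted p = 0.0663), where CDKN1B and CDKN2B were called higher instead (adjusted p = 0.0473 and 0.0447). CCNE2 (-0.32 ± 0.19, adjusted p = 0.304) and CCND3 (-0.11 ± 0.13, adjusted p = 0.623) were not called. CDKN1A (0.24 ± 0.12, adjusted p = 0.198) was not called either, but passed the threshold without pre-treated proliferative library 1 (0.36, adjusted p = 0.0327). That library had the highest CDKN1A level of its group.

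Each pre-treatment was also set against direct exposure to the same medium. For proliferative medium CCNE1 and CCNE2 were higher and CDKN1C and CDKN2B lower in pre-treated cells, 2 and 2 of 9 members, where 13% of all genes were higher and 13.5% lower (26.4% called). CCNE2 was higher by 0.86 ± 0.14 (adjusted p = 5.32e-06) and CDKN1C lower, at -0.61 ± 0.10 (adjusted p = 3.21e-06). CCND1, CCND3, CDKN1A, CDKN1B and CDKN2C were not called there, with log2 differences from -0.15 to 0.10 (adjusted p 0.114 to 0.836). For senescent medium 3 members were higher and 3 lower, where 19.6% and 22.5% of all genes were (42.1% called), and with library totals 4 were higher and 2 lower. CDKN1C (-0.59 ± 0.10, adjusted p = 2.22e-06), CCND1 (-0.52 ± 0.04, adjusted p = 5.4e-14) and CCND3 (-0.27 ± 0.09, adjusted p = 0.0124) were lower, and CCNE2 (0.54 ± 0.13, adjusted p = 0.00102), CDKN1A (0.34 ± 0.09, adjusted p = 0.00117) and CDKN1B (0.19 ± 0.06, adjusted p = 0.00935) were higher. The CDKN1B value was 0.11 without senescent library 3 (adjusted p = 0.163), the lowest CDKN1B library, and 0.30 with the length trend removed. The CCND3 call was lost without senescent library 1 or 2 or pre-treated senescent library 1 (adjusted p 0.0716 to 0.0862). CCNE1, CDKN2B and CDKN2C were not called (adjusted p 0.0615 to 0.775). CDKN2C (0.16 ± 0.07) passed the threshold with library totals and with the length trend removed (adjusted p = 0.0028 and 0.0024).

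The preparations of senescent medium were also compared with the intact medium. Neither fresh nor proliferative medium was boiled or fractionated in these data. Effects of heating or size separation as such therefore cannot be told apart from effects particular to senescent medium. CCND1 was lower than in intact medium in all 3 preparations, by a log2 fold change of -0.42 ± 0.04 in boiled medium (adjusted p = 4.67e-11), -1.04 ± 0.04 in the small fraction (adjusted p = 3.51e-24) and -0.35 ± 0.04 in the large fraction (adjusted p = 1.22e-08). CCND1 was the single member called in the large fraction, which had 0 higher and 1 lower where 8.14% and 10% of all genes were (18.1% called). Boiled medium had 1 member higher and 3 lower out of 9 (11.2% and 14.7% of all genes, 25.9% called). The small fraction had 3 higher and 4 lower (19.9% and 22.7% of all genes, 42.6% called). These comparisons share the 3 intact-medium libraries. With library totals the splits became 1 higher and 1 lower in the large fraction, 2 and 2 in boiled medium, and 3 and 1 in the small fraction. The shares of all genes under that scaling are not given here.

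CDKN1A was higher than in intact medium after boiling (0.42 ± 0.09, adjusted p = 0.000187) and in the small fraction (0.52 ± 0.08, adjusted p = 2.59e-06). CDKN1C was lower after boiling, at -0.57 ± 0.09 (adjusted p = 7.6e-06), and not called in either fraction (0.09 ± 0.09, adjusted p = 0.427, in the small and -0.13 ± 0.09, adjusted p = 0.371, in the large). CDKN1B (0.44 ± 0.06, adjusted p = 3.7e-08) and CDKN2B (0.42 ± 0.09, adjusted p = 0.000284) were higher in the small fraction. Neither E cyclin was called after boiling, and CCNE1 differed by 0.02 ± 0.09 (adjusted p = 0.879).

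Calls in the small fraction against intact medium were less stable for 3 members. CCND3 (-0.25 ± 0.09, adjusted p = 0.0197), CCNE2 (-0.39 ± 0.14, adjusted p = 0.0247) and CDKN2C (-0.19 ± 0.07, adjusted p = 0.0267) all lost the call with library totals (adjusted p 0.0846 to 0.239) and without small-fraction library 3 (adjusted p 0.0537 to 0.25). Without that library the CDKN2C difference was -0.11. CCND3 in boiled against intact medium (-0.23 ± 0.09, adjusted p = 0.0433) lost the call without any 1 of 4 libraries. That call was also lost with library totals, no filter on low counts, a replicate block, both limma fits and only the groups compared (adjusted p 0.0504 to 0.121). CDKN1B in the large fraction (0.14 ± 0.06, adjusted p = 0.0827) passed the threshold with library totals and with the length trend removed (adjusted p = 0.0326 and 0.00639). CDKN1B after boiling (0.15 ± 0.06, adjusted p = 0.0587) did so too (adjusted p = 0.00853 and 0.00531), and also without senescent library 1 or 2 (adjusted p = 0.0274 and 0.0478).

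**Figure D5:**
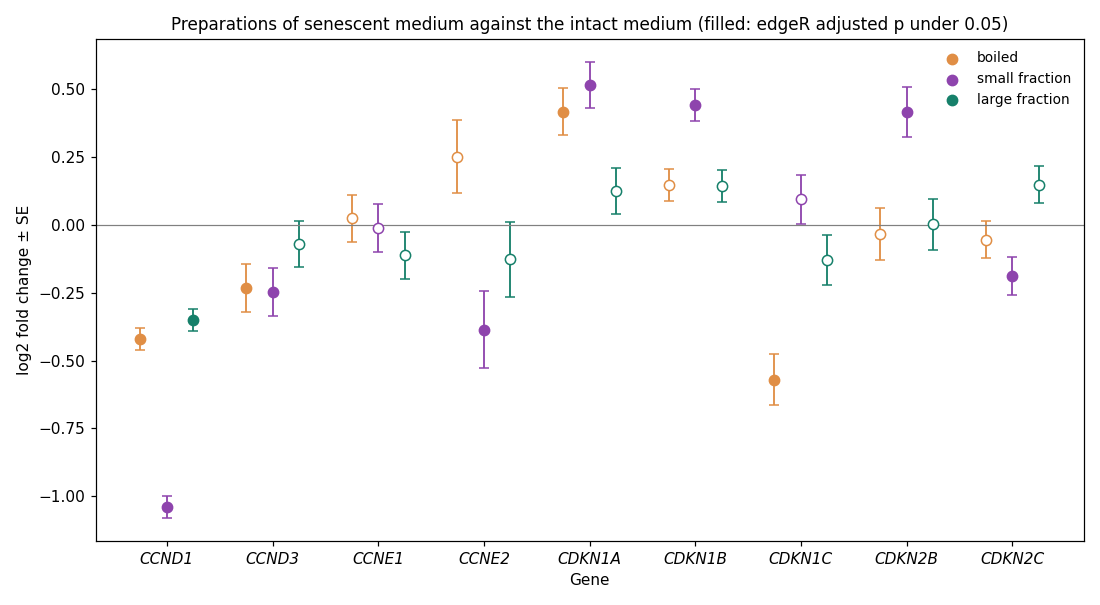
Points give the edgeR log2 fold change of 9 members in boiled medium, the small fraction and the large fraction against intact senescent medium, with bars of 1 SE and filled points where the adjusted p is under 0.05. CCND1 is below 0 in all 3 preparations, lowest in the small fraction (-1.04), and CDKN1A is highest in the small fraction (0.52).

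Set against each other, the small and large fractions differed in 6 of 9 members, 4 higher and 2 lower in the small fraction, where 16.8% and 18.3% of all genes were (35% called). CCND1 (-0.69 ± 0.04, adjusted p = 6.22e-18) and CDKN2C (-0.34 ± 0.07, adjusted p = 0.000115) were lower in the small fraction. CDKN2B (0.41 ± 0.09, adjusted p = 0.000317), CDKN1A (0.39 ± 0.08, adjusted p = 0.000182) and CDKN1B (0.30 ± 0.06, adjusted p = 5.97e-05) were higher, as was CDKN1C (0.22 ± 0.09, adjusted p = 0.0499). The CDKN1C call was lost under every alternative analysis except library totals and DESeq2, and without small-fraction library 1 or 3 or any 1 of the large-fraction libraries. Neither E cyclin was called between the fractions (CCNE1 0.10 ± 0.09, adjusted p = 0.396, and CCNE2 -0.26 ± 0.14, adjusted p = 0.15), nor was CCND3 (-0.18 ± 0.09, adjusted p = 0.108).

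Genes around the members in the G1 pathway were described from lists of known function. All 10 of 10 E2F-dependent S phase genes fell in proliferative against fresh medium (median -0.572), where 21.5% of all genes fell, and all 10 were higher in senescent than in proliferative medium (median 0.421), where 16.6% of all genes were. PCNA, the sliding clamp of DNA polymerases, moved by -0.65 ± 0.04 (adjusted p = 5.55e-16) and 0.60 ± 0.04 (adjusted p = 3.16e-14) in these 2 comparisons. In the small fraction against intact senescent medium all 10 fell again (median -0.895, 22.7% of all genes lower), with TK1, a thymidine kinase, at -1.22 ± 0.05 (adjusted p = 1.34e-22). After pre-treatment 4 of 10 were higher with senescent than with proliferative medium (0.625% of all genes), among them CCNA2, cyclin A2 of S phase (0.31 ± 0.05, adjusted p = 0.000313).

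A list of 8 genes held CDK partners and activators together with CDKN2D, an INK4 inhibitor. Of these 8, 5 were higher and 0 lower in senescent than in proliferative medium, where 16.6% and 12.4% of all genes were. CDKN2D was not among the 5 (adjusted p = 0.786). In the small fraction against intact senescent medium 0 were higher and 7 lower, where 19.9% and 22.7% of all genes were. The inhibitor CDKN2D was 1 of these 7 (-0.77 ± 0.17, adjusted p = 0.000206). CDK2, the partner of the E cyclins, differed in these comparisons by 0.29 ± 0.06 (adjusted p = 4.96e-05) and -0.52 ± 0.06 (adjusted p = 2.04e-10), and CDC25A, the phosphatase that activates it, by 0.46 ± 0.13 (adjusted p = 0.00686) and -1.05 ± 0.14 (adjusted p = 2.5e-08). Of the 13 pocket proteins and E2F factors, 2 rose and 10 fell in proliferative against fresh medium, where 20.6% and 21.5% of all genes did, with TFDP1, a dimer partner of E2F proteins, at -0.42 ± 0.04 (adjusted p = 6.8e-12). In the small fraction against fresh 2 rose and 9 fell (22.1% and 22.5% of all genes), with E2F7, a repressor among the E2F proteins, at -1.40 ± 0.10 (adjusted p = 3.92e-16).

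Among 12 parts of ubiquitin ligases that act on G1 regulators, 2 rose and 7 fell in proliferative against fresh medium (20.6% and 21.5% of all genes), and 3 rose and 8 fell in the small fraction (22.1% and 22.5% of all genes). The numbers that rose were near the shares of all genes. SKP2, which targets p27 for breakdown, fell in both, with -0.97 ± 0.08 (adjusted p = 4.26e-14) and -0.84 ± 0.08 (adjusted p = 1.56e-12). CKS1B, its cofactor, was higher in senescent than in proliferative medium by 0.70 ± 0.08 (adjusted p = 9.23e-10) and lower in the small fraction than in intact medium (-1.36 ± 0.08, adjusted p = 2.01e-18).

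The p53 targets other than CDKN1A moved in both directions in the small fraction against fresh medium, with 7 of 18 higher and 4 lower (median 0.119), where 22.1% and 22.5% of all genes were, so that the number lower was near the share of all genes. CCNG1, a cyclin induced by p53, rose by 0.42 ± 0.04 (adjusted p = 3.3e-12) there and by 0.44 ± 0.04 in senescent medium (adjusted p = 1.79e-12), in which CDKN1A was not called and 8 of 18 targets rose and 0 fell (18.2% and 15.5% of all genes). Of 10 TGF-beta and SMAD targets, 0 rose and 3 fell in the small fraction against fresh medium, the latter near the 22.5% of all genes that fell, and ID3, an inhibitor of helix-loop-helix factors, changed by -0.61 ± 0.09 (adjusted p = 1.4e-07). Of 12 immediate early and ERK feedback genes, 8 were higher and 1 lower in senescent than in proliferative medium (16.6% and 12.4% of all genes), and 1 higher and 9 lower in the small fraction than in intact medium (19.9% and 22.7% of all genes). FOSL1, an AP-1 subunit, differed by 0.57 ± 0.05 (adjusted p = 2.37e-13) and -1.13 ± 0.05 (adjusted p = 9.79e-24) in these comparisons.

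For the 4 members with the widest range, the genes of most similar profile over the 8 group means were listed out of 14875 genes. CCND1 was closest to EEF1E1 (Pearson r = 0.989), UBE2V2 (0.981) and MCMBP (0.980). CCNE2 was closest to NCBP1 (0.990), CASP8AP2 (0.975) and MTPAP (0.974), and CCNE1 to MTATP6P1 (0.984), ATR (0.983) and IDE (0.965). CDKN1C was closest to NFE2 (0.976), PLA2G16 (0.974) and DUSP9 (0.973). These are the highest of many correlations over 8 points, given as a description.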

How the data were processed

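Polyadenylated RNA of 24 OVCAR8 libraries was sequenced from libraries made with a NEBNext Ultra kit, per the labels' protocols. The deposited table holds raw gene counts, and FPKM values that the authors derived from them. These FPKM follow from gene length and a scaling constant for each library, which was 0.966 to 1.038 times the library total. STAR 2.6.1, DESeq2 and GRCh38 appear in the submitters' processing notes without a role, and the sources used here do not give the counter or its strand setting. Of the gene identifiers, 99.86% matched GENCODE 29.

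Counts were scaled by TMM (factors 0.957 to 1.03), filtered by expression and fitted with edgeR 4.0.16 (robust quasi-likelihood, 1 mean per group over 24 libraries, Benjamini-Hochberg over 19210 genes, R 4.3.3). The SE was derived as the size of the log2 fold change over the root of F. Levels are FPKM as deposited, with SD over 3 libraries. The common biological coefficient of variation was 0.0638. The 9 tested members were tested in every comparison, and a tested member not named for one above was not called there. Up to 3 genes of each surrounding list were named by smallest adjusted p, besides CDKN2D. The members and lists were chosen with earlier results of these data known. Alternatives were library totals, no filter on low counts, removal of each library's length trend, a replicate block, limma 3.58.1 on log2(FPKM + 1) and log2(FPKM + 0.1), only the groups compared, DESeq2 1.42.0, and leaving out each library. The edgeR script was tested on simulated data.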

Additional observations from a re-analysis of the deposited data

Results flagged for a closer look

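The effect of senescent against proliferative medium differed between direct exposure and pre-treatment for 2 of 9 members, by the test of the difference itself in edgeR. Of all genes tested, 13.8% were called in that test. For CCND1 the pre-treated log2 difference was -0.43 relative to the direct one (0.27 after pre-treatment, 0.70 on direct exposure). For CCNE1 it was -0.41 (0.09 after pre-treatment, 0.50 on direct exposure). The CCNE1 call was lost with library totals (adjusted p = 0.0663). It was also lost without proliferative library 1 or 2 or pre-treated senescent library 1 (adjusted p 0.0586 to 0.0927). What came between pre-treatment and harvest is not stated in the labels.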

How the results depend on the processing

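Of 144 member values (9 members in 16 comparisons), 76 were called, and 0 of these reversed under any alternative run. The call was lost in 21 when some library was left out, and 13 of these same 21 also lost it under another setting. Shares of all genes called under the alternatives are not given. Counts of members under them, here and above, therefore describe the processing and not the members. The number of members called in the small fraction against intact senescent medium went from 7 to 4 with library totals. In the large fraction against intact senescent medium it went from 1 to 2 with library totals, and to 3 with the length trend removed, with or without the replicate block. Leaving out 1 library gave 3 to 5 members called in pre-treated proliferative against fresh medium (5 in all, lowest without fresh library 3) and 1 to 5 in pre-treated senescent against fresh (3 in all, lowest without pre-treated senescent library 1 and highest without library 2). It gave 4 to 7 in the small fraction against intact medium (7 in all, lowest without small-fraction library 3), 1 to 2 in the large fraction against intact medium (1 in all, 2 without senescent library 1 or large-fraction library 2) and 1 to 3 for the difference between pre-treated and direct effects (2 in all, 1 without proliferative library 1 or 2 or pre-treated senescent library 1). In the large fraction against fresh medium library totals gave 1 member higher and 3 lower in place of 2 and 2, and for the difference between pre-treated and direct effects 2 higher and 1 lower in place of 0 and 2. Why library totals and the length trend move these counts was not tested. The labels name no pairing of libraries by replicate number. Of 51 same-numbered pairs 5 had a correlation of deviations from the group mean over 0.1 (range -0.235 to 0.398). Deviations within a group of 3 sum to 0, so these values cannot settle whether equal numbers share a batch. With the replicate block 3 calls were lost, CDKN2C in proliferative against fresh medium (-0.17, adjusted p = 0.0573), CCND3 in boiled against intact medium (-0.23, adjusted p = 0.0504) and CDKN1C between the fractions (0.22, adjusted p = 0.0517). At these depths the 9 tested members had 4215 to 81520 counts over all libraries, and CCND2 had too few to test.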
